A study of Mus musculus with 6 samples.

Results

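The 39 genes described here carry fatty acids through the cell in opposite directions. They encode enzymes that build fatty acids from acetyl-CoA, enzymes that activate them as acyl-CoAs, the mitochondrial machinery that burns them, 3 regulators of that machinery and 2 fatty acid binding proteins. The members were taken by gene symbol from a count table of 24421 genes. All 39 were present and all 39 passed the filter on low counts. For the comparison, 16 genes were counted as synthesis genes (precursor supply and fatty acid synthase, elongases, desaturases) and 13 as oxidation genes (carnitine shuttle and beta-oxidation enzymes). The 5 acyl-CoA synthetases, the 3 regulators and the 2 binding proteins were counted apart, since acyl-CoAs feed both directions.

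RNA was sequenced from neural stem cells of the subventricular zone, the lining of the lateral ventricles, taken from C57BL/6 mice at postnatal day 60 and grown as primary cultures with EGF and FGF2 at 20 ng/ml each. The 3 treated libraries come from wild type cells exposed to PluriSIn#2 at 20 µM for 3 days, and the 3 control libraries from the same kind of culture given the solvent DMSO. PluriSIn#2 is described in the series as an inhibitor of topoisomerase IIA, the enzyme that untangles DNA in dividing cells. Libraries were grouped by title. In treated replicates 2 and 3 the treatment field instead carries the numbers 3 and 4 after the compound's name, and a fit with treated replicate 1 alone gave the same call for each of the 39 genes. The labels do not say that replicates were separate cultures, so p-values measure the spread between these libraries, which may be technical.

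Cytosolic fatty acid synthesis starts when ATP citrate lyase and acetyl-CoA synthetase supply acetyl-CoA, acetyl-CoA carboxylase turns it into malonyl-CoA, and fatty acid synthase joins malonyl units into palmitate, which elongases lengthen and desaturases furnish with double bonds. Oxidation runs in mitochondria, where acyl groups enter through the carnitine shuttle and are shortened by repeated rounds of dehydrogenation, hydration, a second dehydrogenation and thiolysis. Malonyl-CoA inhibits the entry step, so that active synthesis restrains oxidation. In adult neural stem cells, fatty acid synthase activity is known for its part in proliferation, and fatty acid oxidation for its part in quiescence.

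Library totals ran from 16670962 to 19241869 counts. Top2a, the gene of the targeted enzyme, stood between 854 and 893 CPM in DMSO and between 4.98 and 7.46 CPM in PluriSIn#2 (CPM is a gene's count scaled to a common library size of 1e6). Among the 8 neural stem cell markers Vim was the most abundant, and 3 of the 8 rose while 5 fell. Their summed level lay between 6605 and 6623 CPM in DMSO and between 6909.6 and 6941 CPM in PluriSIn#2. Transcripts of other cell types were scarce in DMSO and higher in the treated libraries. The 15 microglia and macrophage markers summed to 8.33 to 9.86 CPM in DMSO and 204 to 209 CPM in PluriSIn#2, with 13 of 13 tested higher and Trem2 without a read in DMSO. The 8 fibroblast and mural cell markers summed to 23.7 to 24.6 and 220.1 to 225 CPM (7 of 8 higher), the 8 endothelial markers to 5.81 to 6.70 and 33.4 to 37.7 CPM (7 of 8 higher), the 4 choroid plexus markers to 1.86 to 2.45 and 496 to 514 CPM (3 of 3 tested higher) and the 6 neuronal markers to 43.6 to 50.2 and 102 to 106 CPM (6 of 6 higher). The 5 ependymal markers summed to 37.0 to 38.7 and 150.4 to 152 CPM (4 of 4 tested higher). Nearly all of the choroid plexus sum in PluriSIn#2 was Ttr, with a mean of 501 CPM, and most of the ependymal sum was Foxj1, with 144 CPM. Folr1, Kl and Kcne2 were at 3.34, 0.888 and 0.598 CPM there. Rsph1, Dynlrb2, Ccdc153 and Tmem212 were at 5.45, 0.808, 0.756 and 0.0378 CPM. Of the 5 adipocyte markers, Lep had no read in any library, Adipoq none in DMSO and Plin1 none in PluriSIn#2, and the sums were 1.71 to 2.41 and 2.82 to 4.22 CPM. The part of these cells in the results on fatty acid genes was not tested. In bulk RNA, fewer cells of a type and less RNA per cell cannot be told apart.

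Genes of fatty acid oxidation were higher in PluriSIn#2 without exception among the 13 members, while most genes of synthesis were lower. Among the 16 synthesis genes there were 10 falls, 3 rises and 3 genes without a call, with a median log2 fold change of -0.32. Of the 13 oxidation genes all 13 rose, with a median of 0.76 and a range from 0.37 (Hadh) to 1.91 (Cpt1c). The median over the 14417 genes tested was 0.01. Calls were common in this comparison, and the members' counts stand against that background: 82.6% of all tested genes were called at an adjusted p under 0.05, 41.7% higher and 40.9% lower. Among the 39 members 36 were called, 21 higher and 15 lower. Values of both groups were fully apart, without overlap, in 36 of the 39 members and in 82.7% of all tested genes. Calls and adjusted p-values come from the quasi-likelihood test of edgeR, adjusted after Benjamini and Hochberg over all tested genes.

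**Figure D1:**
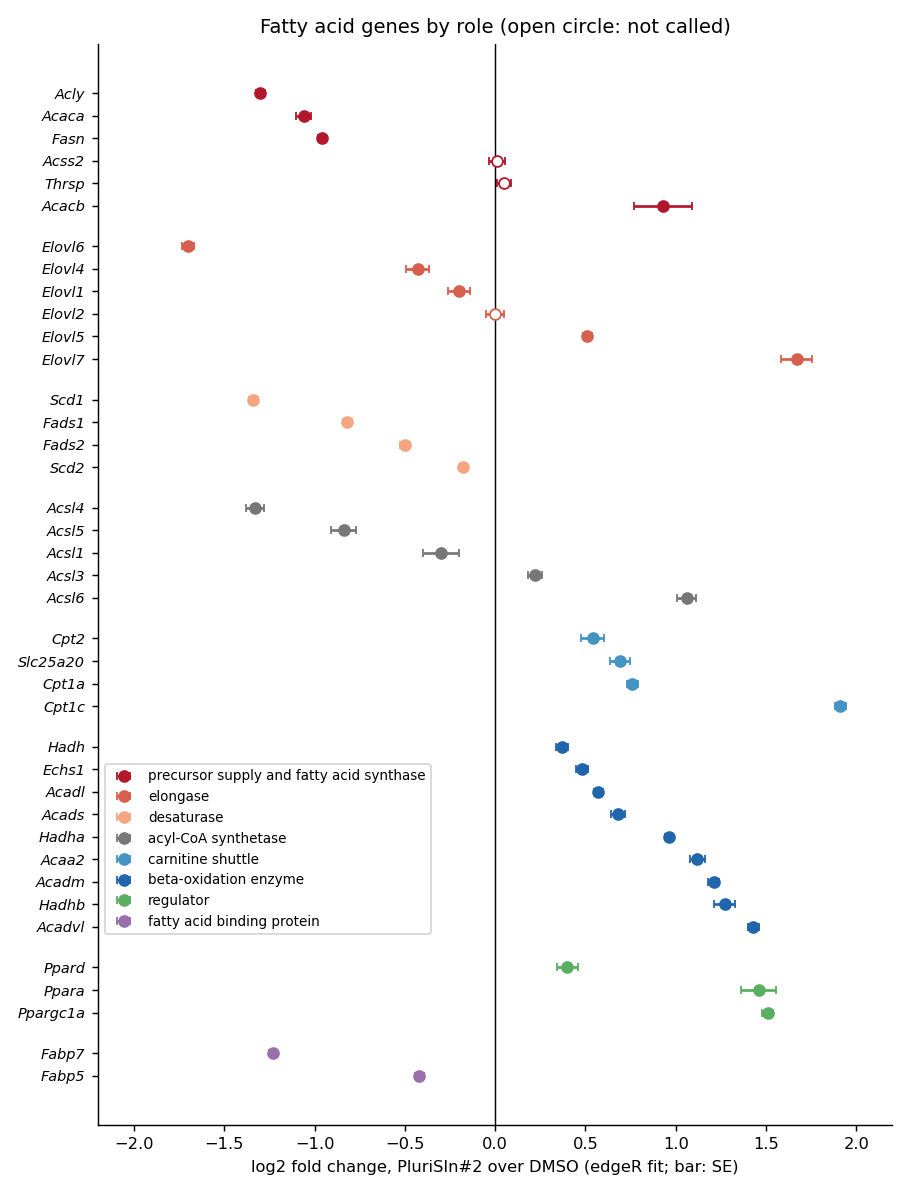
Log2 fold change of PluriSIn#2 over DMSO (x axis) for the 39 genes, by role; points are the fitted values, bars their standard errors, and open circles genes that were not called. All 13 genes of the carnitine shuttle and beta-oxidation lie right of 0, from 0.37 to 1.91, while the synthesis genes reach from -1.70 (Elovl6) to 1.67 (Elovl7).

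Levels can be compared between genes per length, on the authors' FPKM scale. Between groups this scale differs slightly from CPM. It follows library totals alone, which moved the median log2 fold change over all genes up by 0.069. Summed over the 16 synthesis genes, FPKM was 1585, 1579.8 and 1589 in the 3 DMSO libraries and 1282, 1292 and 1283 in the 3 PluriSIn#2 libraries. The 13 oxidation genes summed to 648, 649.7 and 648 FPKM in DMSO and to 1278, 1269 and 1266 FPKM in PluriSIn#2. Oxidation transcripts thus amounted to between 40.8% and 41.1% of the synthesis sum in DMSO and to between 98.2% and 99.7% in PluriSIn#2. The desaturase gene Scd2 made up a large part of the synthesis sum, at 627 ± 6.82 FPKM in DMSO (mean ± SD, n = 3, as throughout). Without it the oxidation sum was 67.1% to 68.5% of the synthesis sum in DMSO and 176% to 181% in PluriSIn#2. The oxidation sum in turn includes Cpt1c, whose product has little transferase activity. Cpt1c stood at 33.3 ± 1.48 FPKM in DMSO and 131 ± 2.56 FPKM in PluriSIn#2, and the sum was not taken without it. These sums are descriptions of the members, which were not chosen at random.

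**Figure D2:**
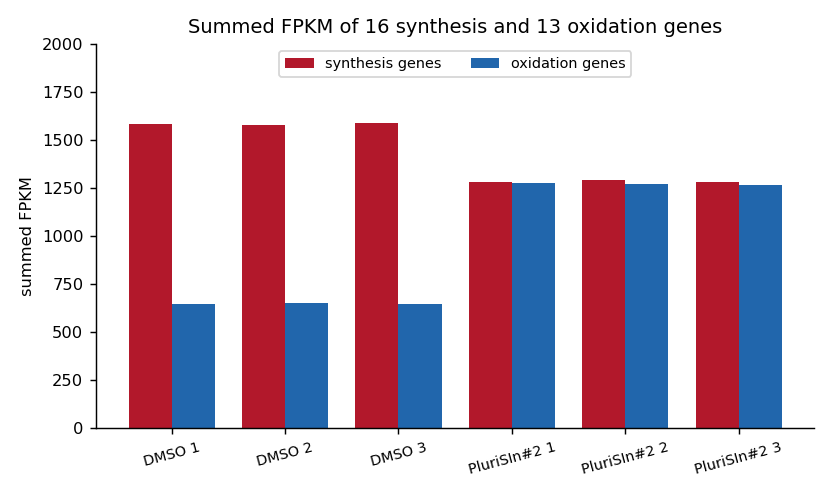
Summed FPKM (y axis) of the 16 synthesis genes (red) and the 13 oxidation genes (blue) in each of the 6 libraries. The synthesis bars are the taller ones in the 3 DMSO libraries, at 1579.8 to 1589 against 648 to 649.7, and nearly level with the oxidation bars in the 3 PluriSIn#2 libraries, at 1282 to 1292 against 1266 to 1278.

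The first enzymes of the synthesis pathway fell together. Acly, which encodes the ATP citrate lyase that makes cytosolic acetyl-CoA from citrate, stood at 495, 480.2 and 491 CPM in DMSO and at 197, 204 and 194 CPM in PluriSIn#2. Every treated library was below every DMSO library, a 2.47-fold fall (log2 difference -1.30 ± 0.0258 SE, edgeR adjusted p = 7.22e-63). Acaca, the main cytosolic acetyl-CoA carboxylase gene, was at 111, 111 and 108 CPM in DMSO and at 51.1, 53.9 and 53.1 CPM in PluriSIn#2, again with no overlap (2.08-fold lower, log2 difference -1.06 ± 0.0416 SE, edgeR adjusted p = 3.03e-40). Fasn, whose product carries out all steps of palmitate synthesis, was at 993, 960 and 934 CPM in DMSO and at 492, 489 and 501 CPM in PluriSIn#2. It fell 1.95-fold (log2 difference -0.96 ± 0.0219 SE, edgeR adjusted p = 3.71e-58) and was still, at 494 ± 6.07 CPM, the synthesis gene with the most counts after Scd2.

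The other 3 genes at the start of the pathway did not fall. Acss2, which makes acetyl-CoA from acetate, was at 72.3, 66.9 and 68.2 CPM in DMSO and at 71.9, 68.0 and 69.6 CPM in PluriSIn#2, with overlapping groups (log2 difference 0.01 ± 0.044 SE, edgeR adjusted p = 0.782). Thrsp, also called Spot14, encodes a regulator of lipogenesis that is known as a marker of slowly dividing neural progenitors. Its values were 89.1, 85.4 and 89.6 CPM in DMSO and 87.6, 95.9 and 90.3 CPM in PluriSIn#2, and it was not called (log2 difference 0.05 ± 0.0398 SE, edgeR adjusted p = 0.215). That call depended on scaling: with library totals alone Thrsp was called higher (log2 fold change 0.12, edgeR adjusted p = 0.00385). Acacb, the acetyl-CoA carboxylase bound to the outer mitochondrial membrane, where its malonyl-CoA restrains the carnitine shuttle, rose from 2.97, 3.94 and 2.72 CPM to 6.32, 6.20 and 5.74 CPM (log2 difference 0.93 ± 0.161 SE, edgeR adjusted p = 2.35e-07). It rests on few reads, 174 over the DMSO libraries and 323 over the treated ones, and its share of the FPKM of both carboxylase genes went from 3.01% ± 0.552 to 11.0% ± 0.659.

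**Figure D3:**
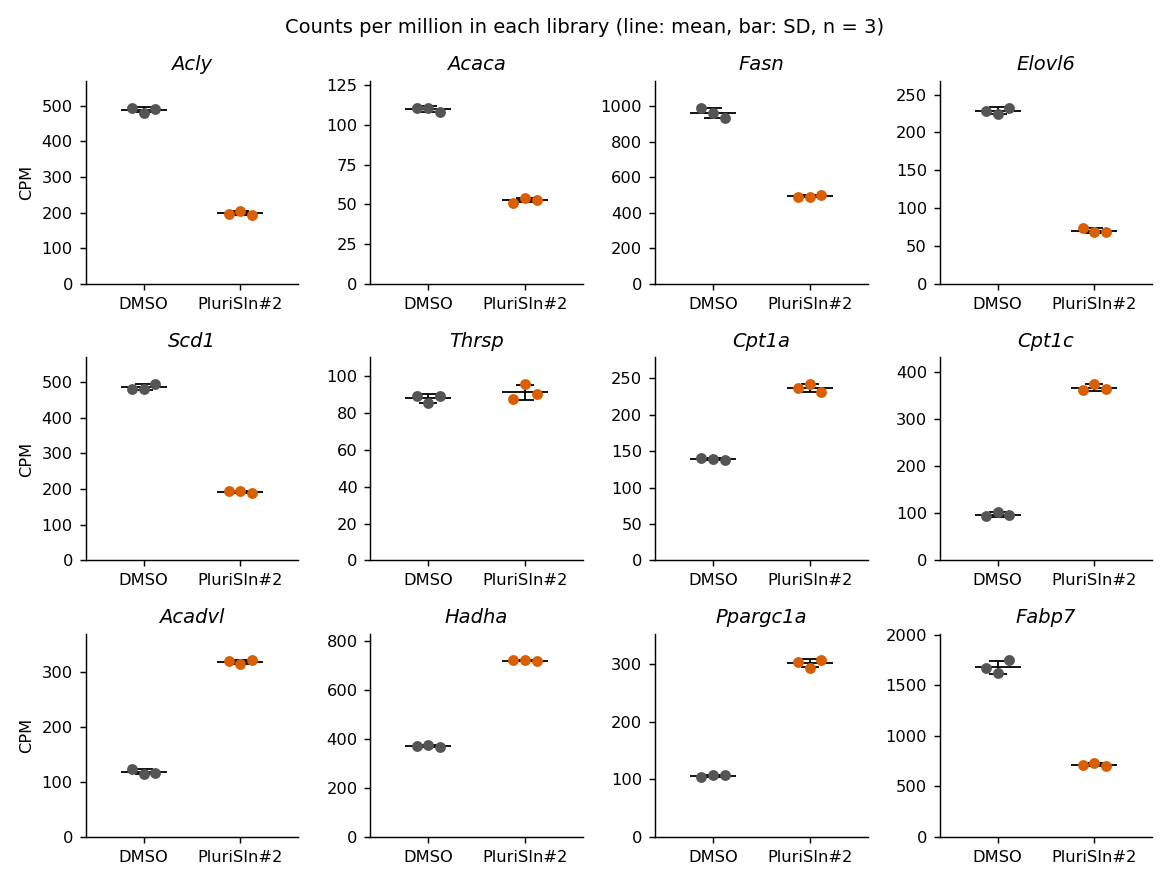
CPM (y axis, from 0) of 12 genes in each library, with the mean as a line and the SD as a bar (n = 3 per group). Acly, Acaca, Fasn, Elovl6, Scd1 and Fabp7 are lower and Cpt1a, Cpt1c, Acadvl, Hadha and Ppargc1a higher in all 3 treated libraries, while the 2 groups of Thrsp overlap.

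The promoters of Fasn and Acly, the most abundant falling genes of this first group, are shown because the CCAAT box was the one motif searched that many members held. They are the RefSeq windows from 250 bases before to 50 bases after the start, on GRCm38.p6, read 5′ to 3′ on the minus strand of each gene, at chr11:120824498-120824797 for Fasn and chr11:100527951-100528250 for Acly. Capitals mark CCAAT or its reverse complement.
Fasn: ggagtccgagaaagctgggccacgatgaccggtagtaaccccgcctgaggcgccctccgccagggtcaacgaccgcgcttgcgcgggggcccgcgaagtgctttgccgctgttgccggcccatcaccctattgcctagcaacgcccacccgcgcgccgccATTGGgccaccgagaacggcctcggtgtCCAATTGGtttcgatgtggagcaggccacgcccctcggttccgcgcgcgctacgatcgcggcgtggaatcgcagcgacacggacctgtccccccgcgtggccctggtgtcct
Acly: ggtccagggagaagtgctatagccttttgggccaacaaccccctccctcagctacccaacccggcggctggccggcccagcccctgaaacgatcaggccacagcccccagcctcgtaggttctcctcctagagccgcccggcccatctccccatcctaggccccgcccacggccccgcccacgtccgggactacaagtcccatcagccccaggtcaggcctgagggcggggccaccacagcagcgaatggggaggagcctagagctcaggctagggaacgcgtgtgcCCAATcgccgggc

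The Fasn window held 3 matches, 90, 62 and 59 bases before the start, of which the last pair overlaps on opposite strands. The Acly window held 1 match, 37 bases after the start. Promoter windows were found for 34 of the 39 members. On either strand, CCAAT occurred in a window of 17 of these 34 genes, of 8 of 13 synthesis genes (61.5%) and of 3 of 12 oxidation genes (25.0%), and in 41.06% of the 27025 genes of the promoter table. The letters TCACNCCAC, a form of the sterol regulatory element, were in 1 member window, that of Acsl1, and in 1.44% of all genes. The estrogen-related receptor element TCAAGGTCA was in 1 member window as well, that of Acsl6 (0.47% of all genes). A PPAR direct repeat, AGGTCA followed after any 1 base by AGGTCA again, was in none of the 34 (0.05% of all genes). These are matches of letters within short windows and say nothing of binding.

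Elongases split in direction. Elovl6, which lengthens palmitate to stearate, had the largest fall of the 39 genes. It was at 229, 224 and 233 CPM in DMSO and at 73.7, 68.2 and 69.0 CPM in PluriSIn#2 (3.25-fold lower, log2 difference -1.70 ± 0.0345 SE, edgeR adjusted p = 4.35e-62). Elovl4, an elongase of very long chain fatty acids, fell from 34.3, 36.4 and 36.2 CPM to 25.8, 28.4 and 25.0 CPM (log2 difference -0.43 ± 0.0635 SE, edgeR adjusted p = 3.05e-09). For Elovl1, which extends saturated very long chains, the lowest DMSO library (33.5 CPM) stood just above the highest treated one (32.6 CPM). Its fall of 0.20 on the log2 scale (SE 0.061, edgeR adjusted p = 0.00163) was lost in tests on log2(FPKM + 1), where the value was -0.13 (limma adjusted p = 0.0533).

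Among the other 3 elongases, 2 rose and 1 was not called. Elovl5 rose from 279, 283 and 295 CPM to 406, 409 and 409 CPM (1.43-fold, log2 difference 0.51 ± 0.0251 SE, edgeR adjusted p = 1.38e-33). Elovl7 rose from 8.85, 8.22 and 9.02 CPM to 28.4, 25.9 and 28.8 CPM (3.18-fold, log2 difference 1.67 ± 0.0863 SE, edgeR adjusted p = 7.13e-32). Elovl2 overlapped between groups, at 47.3, 47.2 and 48.2 CPM in DMSO and 48.2, 49.6 and 45.2 CPM in PluriSIn#2 (log2 difference 0.00 ± 0.0515 SE, edgeR adjusted p = 0.935). On the FPKM scale the family's make-up moved with them. Elovl6 held 20.6% ± 0.182 of the FPKM of the 6 elongases in DMSO and 5.84% ± 0.258 in PluriSIn#2, while Elovl5 went from 54.9% ± 0.722 to 72.6% ± 0.559.

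All 4 desaturase genes fell, by very different amounts. Scd1, a stearoyl-CoA desaturase that places the first double bond, was at 481, 482 and 495 CPM in DMSO and at 194, 194 and 188 CPM in PluriSIn#2 (2.53-fold lower, log2 difference -1.34 ± 0.0258 SE, edgeR adjusted p = 6.79e-64). Its paralogue Scd2, the form known to prevail in brain, was at 3265, 3324 and 3334 CPM in DMSO and at 2915, 2891 and 2939 CPM in PluriSIn#2. The groups did not overlap, yet Scd2 fell by 0.18 on the log2 scale (SE 0.0167, edgeR adjusted p = 2.39e-17), to 88.1% of its DMSO level. The share of Scd2 in the FPKM of both genes was 86.7% ± 0.148 in DMSO and 93.5% ± 0.138 in PluriSIn#2. Of the 50-base windows of the Scd1 and Scd2 transcripts, 4.66% and 4.01% also occur in another gene's transcript, mostly in Scd paralogues.

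Fads1 and Fads2 encode the delta-5 and delta-6 desaturases that make polyunsaturated fatty acids. Fads1 fell from 502, 501 and 491 CPM to 274, 286 and 288 CPM (1.76-fold lower, log2 difference -0.82 ± 0.0246 SE, edgeR adjusted p = 6.51e-49). Fads2 fell from 358, 352 and 353 CPM to 249, 258 and 243 CPM (1.42-fold lower, log2 difference -0.50 ± 0.0261 SE, edgeR adjusted p = 1.03e-31). Elovl5, the elongase that acts between their steps, thus moved the other way from both.

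Acyl-CoA synthetases, which activate fatty acids for either pathway, divided into 3 that fell and 2 that rose. Acsl4, which prefers arachidonate and other polyunsaturated acids, fell from 69.5, 74.0 and 73.6 CPM to 29.0, 29.1 and 28.4 CPM (2.51-fold lower, log2 difference -1.33 ± 0.0521 SE, edgeR adjusted p = 2.98e-40). Acsl5 fell from 33.7, 35.9 and 36.1 CPM to 17.4, 20.7 and 21.0 CPM (log2 difference -0.84 ± 0.0692 SE, edgeR adjusted p = 1.27e-19). Acsl1, a form linked to oxidation in muscle and fat, was low in every library and fell from 12.8 ± 0.205 to 10.4 ± 0.173 CPM (log2 difference -0.30 ± 0.0981 SE, edgeR adjusted p = 0.00451). None of these 3 genes overlapped between groups, which was also so for 82.7% of all tested genes.

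Acsl6, a synthetase abundant in brain, rose from 33.3, 32.9 and 33.3 CPM to 71.9, 69.9 and 65.0 CPM (2.08-fold, log2 difference 1.06 ± 0.0516 SE, edgeR adjusted p = 1.62e-33). Acsl3, a form found on lipid droplets and the endoplasmic reticulum, rose slightly, from 97.3, 102 and 101 CPM to 115, 114 and 121 CPM (log2 difference 0.22 ± 0.0365 SE, edgeR adjusted p = 1.1e-07). The family's summed level differed little, and not in the same direction on both scales. It was 65.3 to 67.7 FPKM in DMSO and 72.4 to 72.7 FPKM in PluriSIn#2, but 246 to 258 CPM in DMSO and 243 to 246 CPM in PluriSIn#2. The parts traded places within the FPKM sum. Acsl6 held 17.2% ± 0.427 of it in DMSO and 34.5% ± 1.74 in PluriSIn#2, and Acsl4 went from 19.6% ± 0.294 to 7.56% ± 0.103.

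**Figure D4:**
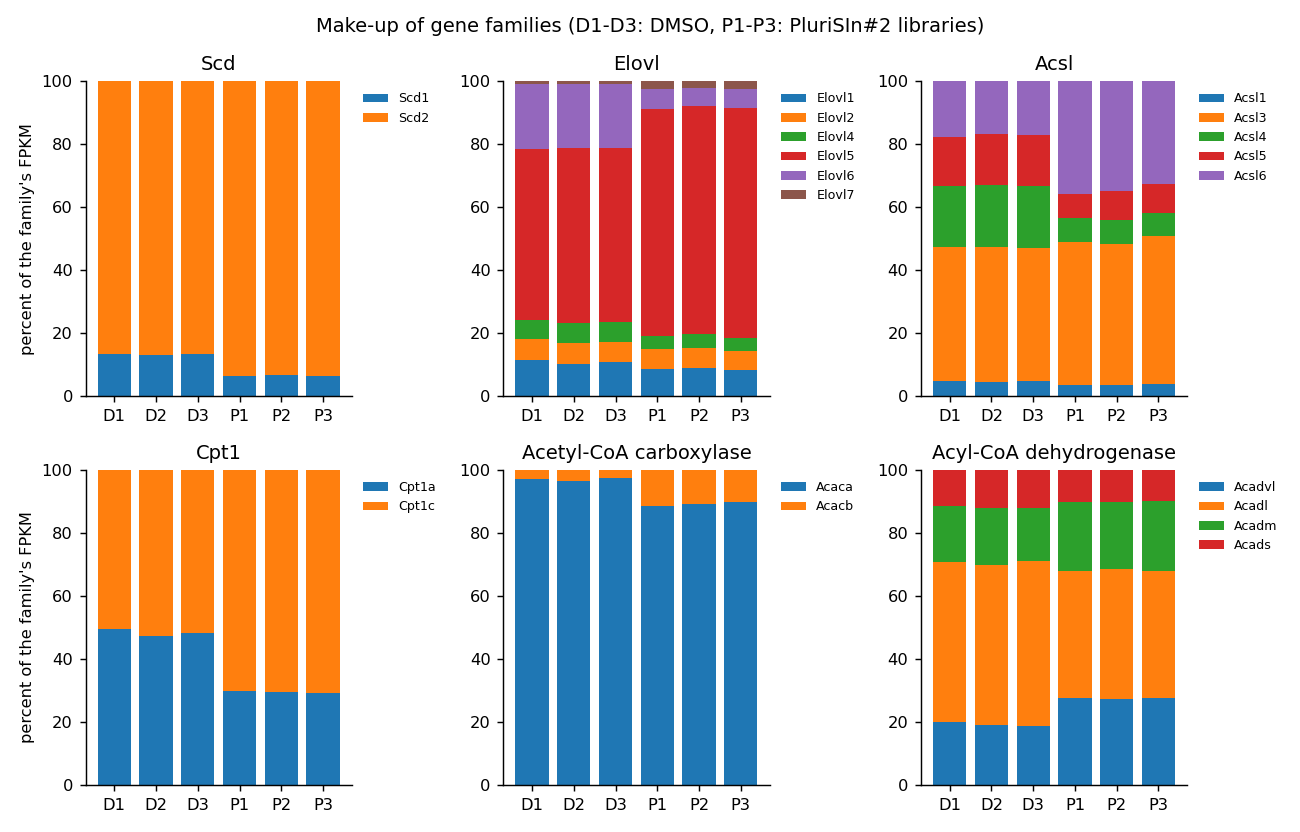
Share of each gene in its family's FPKM (y axis, percent) in the DMSO (D1 to D3) and PluriSIn#2 (P1 to P3) libraries, for 6 families. Elovl6 and Acsl4 shrink and Elovl5, Acsl6, Cpt1c and Acadvl widen in all 3 treated libraries, and the bars within a group are nearly alike.

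All 4 carnitine shuttle genes rose. Cpt1a, the carnitine palmitoyltransferase of the outer mitochondrial membrane and the step that malonyl-CoA inhibits, was at 141, 139.6 and 138 CPM in DMSO and at 236, 242 and 231 CPM in PluriSIn#2 (1.69-fold, log2 difference 0.76 ± 0.03 SE, edgeR adjusted p = 4.24e-40). Cpt1c is a neuronal paralogue of the endoplasmic reticulum with little transferase activity, and was placed here with its gene family. It had the largest rise of the 39 genes, from 93.4, 102 and 96.5 CPM to 360.2, 374 and 363 CPM (3.76-fold, log2 difference 1.91 ± 0.0305 SE, edgeR adjusted p = 2.33e-70). In the same libraries all 6 neuronal markers were higher, and their part in the rise of Cpt1c was not tested.

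Per length, both genes stood at a like level in DMSO, with Cpt1a at 31.0 ± 0.423 FPKM and Cpt1c at 33.3 ± 1.48 FPKM. In PluriSIn#2 Cpt1a reached 55.1 ± 1.18 FPKM and Cpt1c 131 ± 2.56 FPKM. Slc25a20, the carrier that moves acylcarnitines across the inner membrane, rose from 33.4, 31.6 and 36.8 CPM to 58.6, 54.7 and 51.4 CPM (log2 difference 0.69 ± 0.056 SE, edgeR adjusted p = 4.67e-20). Cpt2, which returns the acyl group to CoA in the matrix, rose from 27.0, 24.9 and 25.1 CPM to 39.7, 35.9 and 36.0 CPM (log2 difference 0.54 ± 0.0634 SE, edgeR adjusted p = 1.71e-12).

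The promoter windows of both Cpt1 genes are shown beside those of the falling genes, with the same build, source and marking. Cpt1a lies on the plus strand, at chr19:3323051-3323350, and Cpt1c on the minus strand, at chr7:44974802-44975101.
Cpt1a: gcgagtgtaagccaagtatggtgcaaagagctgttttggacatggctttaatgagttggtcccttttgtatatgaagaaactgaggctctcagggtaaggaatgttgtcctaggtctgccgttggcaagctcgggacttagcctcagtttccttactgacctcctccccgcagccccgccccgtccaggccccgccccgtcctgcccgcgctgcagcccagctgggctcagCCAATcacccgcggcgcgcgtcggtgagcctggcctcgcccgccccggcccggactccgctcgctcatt
Cpt1c: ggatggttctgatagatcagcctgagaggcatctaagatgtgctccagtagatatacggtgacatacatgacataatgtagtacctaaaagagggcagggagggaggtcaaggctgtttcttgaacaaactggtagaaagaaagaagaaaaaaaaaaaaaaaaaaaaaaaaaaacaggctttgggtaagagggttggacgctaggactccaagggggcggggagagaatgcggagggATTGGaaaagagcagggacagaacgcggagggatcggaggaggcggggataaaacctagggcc

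Each window held 1 CCAAT match, 19 bases before the start in Cpt1a and 13 bases before it in Cpt1c. Genes that rose and genes that fell thus both carried the motif.

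The 4 acyl-CoA dehydrogenase genes, whose products begin each round of beta-oxidation on chains of falling length, all rose. Acadvl, for very long chains, was at 123, 115 and 116 CPM in DMSO and at 319, 314 and 320.2 CPM in PluriSIn#2 (2.70-fold, log2 difference 1.43 ± 0.0298 SE, edgeR adjusted p = 2.9e-61). Of its exonic bases 42.9% lie opposite exons of Dvl2 on the other strand. Dvl2 moved the other way, from 54.8 ± 2.31 to 32.1 ± 0.673 CPM (log2 difference -0.77 ± 0.0545 SE), but without the strand setting of the counting, reads of the overlap cannot be assigned.

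Acadl, for long chains, had the highest level per length of the 4 in DMSO, at 138 ± 3.70 FPKM. It rose from 275, 277 and 289.7 CPM to 417, 420.3 and 415 CPM (1.49-fold, log2 difference 0.57 ± 0.0251 SE, edgeR adjusted p = 7.52e-37). Acadm, for medium chains, rose from 102, 104 and 99.4 CPM to 238, 227 and 240.1 CPM (2.32-fold, log2 difference 1.21 ± 0.0321 SE, edgeR adjusted p = 4.02e-53). Acads, for short chains, rose from 60.1, 62.5 and 64.4 CPM to 100.2, 99.9 and 98.7 CPM (1.6-fold, log2 difference 0.68 ± 0.0411 SE, edgeR adjusted p = 2.99e-27). Acadvl and Acadm gained share in the family's FPKM, from 19.2% ± 0.797 to 27.6% ± 0.129 and from 17.5% ± 0.551 to 21.6% ± 0.496, while Acadl went from 51.3% ± 0.877 to 40.6% ± 0.522.

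Both subunits of the mitochondrial trifunctional protein, which carries out the last 3 steps on long chains, rose. Hadha was at 372, 374 and 367 CPM in DMSO and at 721, 721 and 719 CPM in PluriSIn#2 (1.94-fold, log2 difference 0.96 ± 0.0223 SE, edgeR adjusted p = 1.95e-57). Hadhb was at 25.0, 29.7 and 28.5 CPM in DMSO and at 70.1, 61.4 and 68.6 CPM in PluriSIn#2 (2.40-fold, log2 difference 1.27 ± 0.0566 SE, edgeR adjusted p = 3.31e-36). The products form a complex of equal parts, yet in DMSO the FPKM was 92.8 ± 1.11 for Hadha and 12.9 ± 1.10 for Hadhb. Of the 50-base windows of the Hadhb transcript 62.38% also occur in transcripts of 2 other annotated genes, against none for Hadha. Its level is therefore uncertain where reads that fit several places were dropped or shared, and the authors' treatment of such reads is not stated in the sources used here.

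Hadha and Hadhb lie head to head on chromosome 5, Hadha on the minus strand from 30118304 to 30155162 and Hadhb on the plus strand from 30155248 to 30184593, their annotated starts 86 bases apart (GENCODE M21 on GRCm38, the build also called mm10). Their promoter windows overlap, and 1 is shown because both genes rose. The window of Hadhb, at chr5:30155003-30155302 on the plus strand, held none of the 4 motifs searched, and neither did that of Hadha.
Hadhb: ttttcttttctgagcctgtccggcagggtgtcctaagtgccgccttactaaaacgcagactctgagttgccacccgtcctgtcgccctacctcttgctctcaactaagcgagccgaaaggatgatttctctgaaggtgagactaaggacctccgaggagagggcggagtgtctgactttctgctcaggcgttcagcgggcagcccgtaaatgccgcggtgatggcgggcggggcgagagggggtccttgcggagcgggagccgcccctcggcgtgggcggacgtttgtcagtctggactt

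The remaining enzymes of the cycle act on shorter chains. Echs1, the hydratase, rose from 111, 114 and 109 CPM to 157, 155 and 152 CPM (log2 difference 0.48 ± 0.0335 SE, edgeR adjusted p = 1.9e-23). Hadh, the second dehydrogenase, showed the smallest rise among the 13, from 139.8, 132 and 134 CPM to 171, 179.9 and 175 CPM (1.30-fold, log2 difference 0.37 ± 0.0322 SE, edgeR adjusted p = 1.04e-18). Acaa2, the thiolase that closes the round, rose from 59.3, 59.2 and 56.5 CPM to 129.7, 125 and 125 CPM (2.17-fold, log2 difference 1.12 ± 0.0397 SE, edgeR adjusted p = 1.57e-43). In all 13 oxidation genes every treated library stood above every DMSO library. Groups were without overlap, in either direction, in 82.7% of all tested genes.

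The 3 regulators rose as well. Ppargc1a encodes PGC-1alpha, a coactivator known for driving mitochondrial and oxidation genes. It was at 104, 107 and 108 CPM in DMSO and at 305, 294 and 307 CPM in PluriSIn#2 (2.84-fold, log2 difference 1.51 ± 0.0303 SE, edgeR adjusted p = 2.35e-62). Ppara, the nuclear receptor that switches on oxidation genes in liver, rose from 7.84, 6.19 and 8.43 CPM to 20.8, 21.3 and 19.8 CPM (2.75-fold, log2 difference 1.46 ± 0.0977 SE, edgeR adjusted p = 1.01e-24). Ppard, a more widely expressed receptor of the same family, rose from 39.2, 34.5 and 34.7 CPM to 49.3, 48.1 and 45.9 CPM (log2 difference 0.40 ± 0.0559 SE, edgeR adjusted p = 4.67e-10). Per length, Ppara stayed the scarcest of the 3, at 2.78 ± 0.1 FPKM in PluriSIn#2 against 14.9 ± 0.542 for Ppard and 46.7 ± 1.13 for Ppargc1a.

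Both fatty acid binding proteins, carriers of fatty acids in the cytosol, fell. Fabp7, also called BLBP and a marker of radial glia and neural stem cells, was at 1666, 1620.2 and 1745 CPM in DMSO and at 715, 729 and 703 CPM in PluriSIn#2 (2.34-fold lower, log2 difference -1.23 ± 0.0209 SE, edgeR adjusted p = 3.74e-68). At 2107 ± 75.8 FPKM in DMSO it had the highest level per length of the 39 genes, and at 943 ± 16.9 FPKM in PluriSIn#2 it still did. Fabp5 was at 411, 408 and 418 CPM in DMSO and at 307, 305 and 312 CPM in PluriSIn#2 (1.34-fold lower, log2 difference -0.42 ± 0.0245 SE, edgeR adjusted p = 1.72e-28). Of the 50-base windows of its transcript 21.11% also occur in 5 other annotated genes, so its count is less certain. The same holds for Acaca, with 52.56% of windows shared with 1 other gene.

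Genes around the pathway were read from lists of non-members. The counts of each list stand against the same background, with 82.6% of all tested genes called, 41.7% higher and 40.9% lower. Control of synthesis by SREBP, LXR and ChREBP, transcription factors that respond to sterols, insulin and sugar, showed no common direction: 7 of 14 genes rose and 5 fell, with 2 left without a call (median log2 difference 0.15). Srebf1, whose product SREBP-1 is known for activating Fasn, Acaca and Scd1, rose slightly, from 271 ± 6.28 to 296 ± 8.29 CPM (log2 difference 0.13 ± 0.0267 SE, edgeR adjusted p = 1.52e-05), while those 3 genes fell. Srebf2, its sterol-directed relative, fell from 549.7 ± 6.19 to 252 ± 2.57 CPM (-1.13), and Insig1, which holds SREBP back, from 369 ± 8.73 to 77.5 ± 2.56 CPM (-2.25). Scap, the escort of SREBP, rose (0.68), as did Insig2 (0.56). The LXR gene Nr1h3 rose from 1.56 ± 0.015 to 4.57 ± 1.39 CPM (log2 difference 1.55 ± 0.211 SE, edgeR adjusted p = 2.22e-10), and the ChREBP gene Mlxipl was near the limit of detection, at 0.683 ± 0.132 and 0.904 ± 0.157 CPM, and not called.

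Other synthesis and elongation enzymes did not follow Acly, Acaca and Fasn. Of 19 listed genes 17 were tested, with 13 rises, 3 falls and 1 gene without a call (median log2 difference 0.43). Hacd2, a dehydratase of the elongation cycle, rose from 34.3 ± 1.24 to 71.6 ± 2.76 CPM (1.06), and Oxsm, of the separate mitochondrial synthesis pathway, from 7.42 ± 1.77 to 15.2 ± 0.465 CPM (1.03). The dehydratase gene Hacd1 (-0.57) and Tecr (-0.38), the reductase that ends an elongation round, fell.

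Oxidation genes outside the members mostly rose. The 17 other mitochondrial oxidation genes gave 15 rises, 1 fall and 1 gene without a call (median log2 difference 0.74), led by the acyl-CoA dehydrogenase genes Acad11, from 22.8 ± 1.21 to 74.6 ± 0.848 CPM (1.71), and Acadsb, from 51.2 ± 2.65 to 156 ± 1.39 CPM (1.6). The gene that fell, Cpt1b, the muscle form of the Cpt1 enzymes, was named after its value was seen. It was at 0.812 ± 0.160 and 0.305 ± 0.153 CPM, and the list held no lower gene with a filter at 1 CPM or with treated replicate 1 alone. On the authors' FPKM scale Cpt1b hardly differed, at 1.57 ± 0.162 in DMSO and 1.53 ± 0.181 in PluriSIn#2. Its fall was thus seen in the counts alone, and the reason was not tested. Of 16 tested peroxisomal genes, which shorten very long and branched chains, 13 rose (median 0.84). Phyh, which starts the breakdown of branched phytanic acid, rose from 24.4 ± 1.41 to 119 ± 2.62 CPM (2.28), and Abcd2, a peroxisomal importer, from 13.7 ± 0.262 to 32 ± 0.899 CPM (1.23).

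Partners and classic targets of PPAR receptors gave 7 rises and 2 falls among 9 genes (median log2 fold change 0.97). Pdk4, a kinase that turns glucose carbon away from mitochondria, rose from 8.23 ± 1.04 to 33.5 ± 1.14 CPM (2.02), and Plin2, a coat protein of lipid droplets, from 24.5 ± 0.848 to 57.8 ± 2.68 CPM (1.24). Acot1, a thioesterase also known as a PPAR target, fell from 139 ± 3.76 to 68.8 ± 1.41 CPM (-1.01). The other fall was that of Ppargc1b, the paralogue of the risen Ppargc1a, from 3.79 ± 0.52 to 1.70 ± 0.241 CPM (-1.15). Pparg itself was scarce, at 0.849 ± 0.287 CPM in DMSO and 2.07 ± 0.512 CPM in PluriSIn#2 (log2 difference 1.27 ± 0.295 SE, edgeR adjusted p = 5.91e-05). Macrophages express Pparg and Nr1h3 too, and their 15 markers were higher in the same libraries; their part was not tested.

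**Figure D5:**
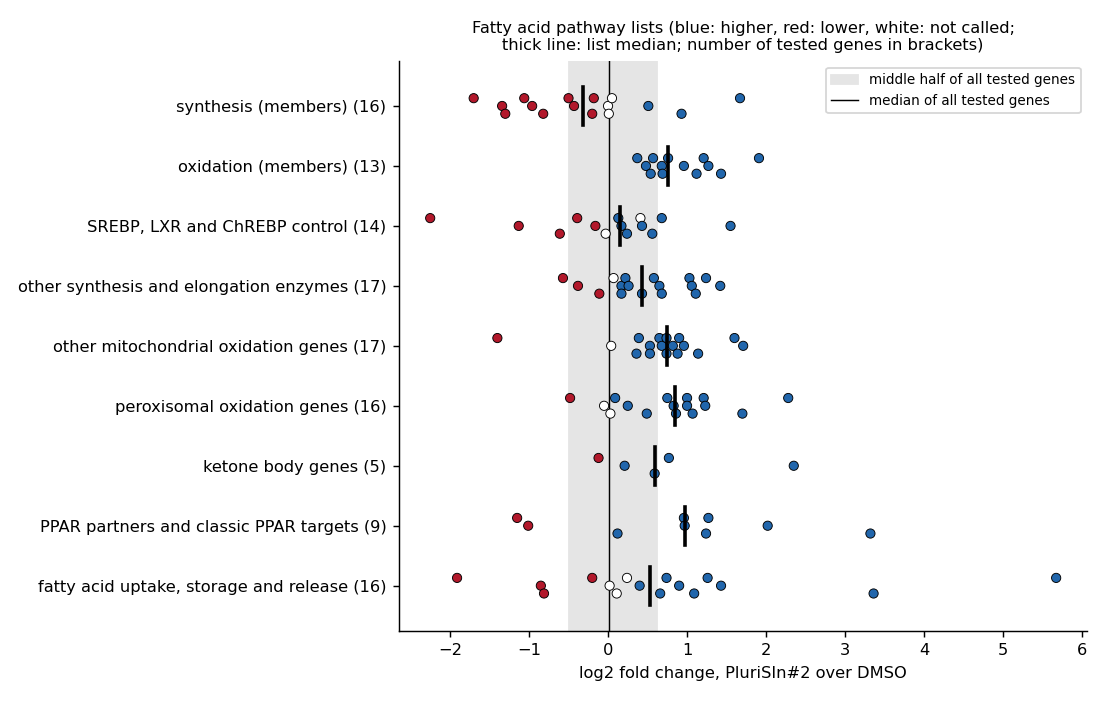
Log2 fold change of PluriSIn#2 over DMSO (x axis) of each tested gene in the synthesis and oxidation members and in 7 lists of non-members, with the list median as a thick line. Grey spans the interquartile range of all tested genes, from -0.50 to 0.62, and the medians of the mitochondrial (0.74) and peroxisomal (0.84) oxidation lists and of the PPAR list (0.97) lie above it, as does that of the oxidation members (0.76).

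In the authors' deposited table, the log2 fold changes of the 39 genes differed from those above by at most 0.01, and its adjusted p-values gave the same call for all 39, 21 higher, 15 lower and 3 not called.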

How the data were processed

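RNA was sequenced in 3 DMSO and 3 PluriSIn#2 libraries, grouped by title. STAR, HTSeq, DESeq and mm10 are named in the submitters' processing notes; the sources used here do not give versions, annotation, strand setting or treatment of multiply mapped reads. Raw whole-number counts per gene symbol make up the first deposited table. The deposited FPKM table holds the authors' length- and depth-normalized values, with the authors' log2 fold changes and p-values; 25 entries there with date-like or repeated names were left out.

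Counts were tested in R 4.3.3 with edgeR 4.0.16 (filterByExpr, TMM, glmQLFit, glmQLFTest, group as the only term, two-sided) on all 14417 genes that passed the filter of 24421, with Benjamini-Hochberg adjustment and a threshold of 0.05. CPM uses TMM-scaled library totals. Standard errors were derived as the log2 fold change divided by the square root of F. Members, lists and tests were chosen with earlier results of these data known. Non-members named are the 2 largest rises and falls per list among called genes averaging at least 5 CPM, plus Srebf1, Mlxipl, Nr1h3 and Pparg. Cpt1b, Ppargc1b and the single cell type markers given with values were named after their values were seen. The most abundant marker was Vim for neural stem cells, Lyz2 for macrophages, Col3a1 for fibroblasts, Cdh5 for endothelium, Foxj1 for ependyma, Ttr for choroid plexus, Gad1 for neurons and Cidea for adipocytes. Shared sequence was counted as exact 50-base windows of the longest coding transcript in GENCODE M21 found in another gene's transcripts. Alternatives used DESeq2 1.42.0, limma 3.58.1 on log2(FPKM + 1) and log2(FPKM + 0.1), other scalings and filters, a replicate block and leaving out each library. The script was tested on simulated data. A peroxisomal gene and a marker list are not reported here.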

Additional observations from a re-analysis of the deposited data

How the results depend on the processing

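The 16 alternative fits kept the direction of every called member they tested, and 37 of the 39 members kept their call in every fit that tested them; the exceptions are Thrsp and Elovl1. Acacb was tested in 14 of the 16, since its low FPKM left it out of the 2 filtered limma fits, and its value was 0.34 in limma on log2(FPKM + 1) without a filter. Thrsp became called higher with library totals alone and in the 3 limma fits, at 0.12 in each, and Elovl1 lost its call in the 3 limma fits, at -0.13. The median of the synthesis genes was -0.25 with library totals alone and -0.23 with limma on log2(FPKM + 1) without a filter. The median of the oxidation genes was 0.83 with library totals alone and with limma on log2(FPKM + 0.1), and 0.81 with limma on log2(FPKM + 1), filtered or not. Library totals alone moved the median over all genes by 0.069. Membership mattered as follows. Adding the acyl-CoA synthetases gave 5 synthesis genes higher in place of 3, and also added 3 falls to the 10 among synthesis genes. Leaving out Acacb and Thrsp moved the synthesis median to -0.47, and adding the 3 regulators moved the oxidation median to 0.86. Among lists of non-members, the single lower gene of the mitochondrial oxidation list, Cpt1b, became 0 with a filter at 1 CPM, in the 3 limma fits and with treated replicate 1 alone, that of the ketone body list became 0 in the 3 limma fits, and 1 in place of 2 PPAR genes was lower in the 2 limma fits with a filter. No pairing by the numbers of the titles was detected: deviations of same-numbered libraries correlated at 0.0134, 0.0293 and -0.0025. With only 3 libraries per group, such values cannot show that the libraries were unpaired. With a replicate block, the counts of members were 21 higher and 15 lower as before. In the fit with treated replicate 1 alone, that library is assumed to vary like the DMSO ones. Reads are few for Acacb (174 in DMSO and 323 in PluriSIn#2), Pparg (46 and 109), Mlxipl (37 and 48) and Cpt1b (44 and 16), which limits their precision.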

Other observations

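Uptake, storage and release of fatty acids gave 9 rises, 4 falls and 3 genes not called among 16. Over all tested genes 82.6% were called, 41.7% higher and 40.9% lower, which is also the background for the ketone body genes below. Cd36, a fatty acid transporter also found on macrophages and endothelium, rose from 4.78 ± 0.272 to 49.3 ± 0.872 CPM (log2 difference 3.36 ± 0.084 SE). Abhd5, the activator of the triglyceride lipase of lipid droplets, rose from 30.5 ± 2.07 to 82.4 ± 3.39 CPM (log2 difference 1.43 ± 0.0512 SE). Lpin1, a phosphatase that makes diacylglycerol, fell from 157 ± 2.11 to 89.0 ± 3.41 CPM (log2 difference -0.81 ± 0.0352 SE), and Dgat2, which makes triglyceride from it, from 15 ± 1.04 to 8.32 ± 0.936 CPM (log2 difference -0.85 ± 0.102 SE). The largest edgeR adjusted p of these 4 was 3.55e-12, that of Dgat2. Macrophage and endothelial markers were higher in the same libraries, and their part in the rise of Cd36 was not tested.

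Of 5 ketone body genes 4 rose and 1 fell (median log2 fold change 0.59). Oxct1, which lets cells use ketone bodies as fuel, rose from 471 ± 5.90 to 709.6 ± 6.81 CPM (log2 difference 0.59 ± 0.0219 SE), and Bdh1, which interconverts the main ketone bodies, from 95.9 ± 5.16 to 164 ± 6.71 CPM (log2 difference 0.77 ± 0.0359 SE). Acat1, a thiolase of ketone and isoleucine metabolism, fell slightly, from 305 ± 7.76 to 279 ± 4.42 CPM (log2 difference -0.12 ± 0.0262 SE).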
